A study of Mus musculus with 5 samples.

Results

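The genes described here encode the MHC class I molecule, the machinery that loads it with peptide, the transcriptional regulator of that machinery, and the inducible subunits of the immunoproteasome. They are H2-K1, H2-D1, B2m, Tap1, Tap2, Tapbp, Nlrc5, Psmb8, Psmb9 and Psmb10, 10 of the 53700 genes in the count table. The members were chosen by symbol, and each symbol had 1 row. All 10 were among the 8846 compared genes, those with at least 10 CPM (counts scaled to library size) in at least 1 library.

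Poly-A RNA was sequenced from MutuDC, an immortal line of mouse cDC1-type dendritic cells, before and during exposure to Fanchinoline (the labels' spelling). There was 1 library of vehicle control cells, treated here as 0 h, and 1 each for 2, 6, 12 and 24 h of exposure, at a dose that the labels do not state; the design text of the series instead calls the control untreated. The same text speaks of triplicates, and whether the deposited columns pool them is not stated, so no difference below has a replicate check. Exposure to the compound and hours in culture change together, because the later times have no vehicle library of their own.

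MHC class I molecules display peptides from inside the cell to CD8 T cells. Each consists of a polymorphic heavy chain, such as H2-K or H2-D in mice, held together with beta-2-microglobulin, the product of B2m. Peptides are cut by the proteasome, whose constitutive catalytic subunits can be exchanged for inducible ones to form the immunoproteasome. The TAP transporter carries the peptides into the endoplasmic reticulum, where tapasin, the product of Tapbp, bridges it to empty class I molecules. Dendritic cells of the cDC1 kind are known for cross-presentation, the loading of peptides from engulfed material onto class I. NLRC5 is a transactivator that acts on class I promoters through proteins bound to the X and Y boxes, and interferons and NF-kB act on the same promoters.

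The promoters are shown because class I genes are known to share regulators whose boxes can be searched for in the sequence. RefSeq promoter windows on GRCm38, from 250 bases before to 50 bases after a start site, were found for 8 of the 10 genes, in 9 windows; Tap2 and Nlrc5 were not matched. H2-K1 has 2 windows, of which the one with the start site farther upstream is shown. Both strands were searched for 4 motifs: the NF-kB consensus (by name), AANNGAAA as the interferon regulatory factor (IRF) element, TGACG as the half-site of the cyclic AMP response element that lies in the X box, and ATTGG as the Y box. Capitals below mark any match to one of these motifs, and the part shown lies before the RefSeq start site. The first 3 stretches are the class I heavy chains and B2m. They run along chr17:34000353-34000464 (minus strand), chr17:35262917-35263051 (plus strand) and chr2:122147544-122147644 (plus strand).
H2-K1: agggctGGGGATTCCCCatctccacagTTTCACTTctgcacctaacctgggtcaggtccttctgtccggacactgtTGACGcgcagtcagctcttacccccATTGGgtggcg
H2-D1: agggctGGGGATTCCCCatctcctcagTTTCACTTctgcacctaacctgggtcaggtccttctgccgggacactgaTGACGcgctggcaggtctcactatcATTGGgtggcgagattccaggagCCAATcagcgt
B2m: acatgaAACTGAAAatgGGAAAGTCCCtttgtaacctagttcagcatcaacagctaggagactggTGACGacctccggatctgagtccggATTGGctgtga

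In the heavy chain genes the 4 motifs stand in the order NF-kB, IRF, X box half-site and Y box. In B2m the IRF element comes before the NF-kB match. The H2-K1 and H2-D1 windows, aligned without gaps at the NF-kB match, were identical at 166 of 190 bases before the start sites (87.4%). All 4 motifs were found in 3 of the 8 genes, H2-K1, H2-D1 and B2m, and in 30 of all 32851 RefSeq windows (0.0913%). Separately, the NF-kB consensus was in 4.51% of all windows, the IRF element in 23.9%, TGACG in 20.8% and ATTGG in 37.4%. These motifs were chosen because class I promoters are known to hold them, so the matches are a description and mark no measured binding.

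Tap1 and Psmb9 are transcribed away from each other from 1 shared region, so they are printed together. Between their RefSeq start sites lie 225 bases on chr17:34187331-34187555, given on the strand of Tap1.
Tap1-Psmb9: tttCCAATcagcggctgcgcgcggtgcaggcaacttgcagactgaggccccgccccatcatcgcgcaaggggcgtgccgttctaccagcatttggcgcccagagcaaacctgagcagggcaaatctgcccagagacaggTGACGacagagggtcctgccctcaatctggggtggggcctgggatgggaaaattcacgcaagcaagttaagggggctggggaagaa
This stretch held a Y box and a TGACG half-site and no match to the IRF element or the NF-kB consensus as searched. The Psmb8 and Psmb10 windows held no match to any of the 4 motifs, and the Tapbp window held 2 Y boxes and none of the others.

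Of the 10 genes, 7 lie on chromosome 17 in or beside the mouse MHC in GENCODE's annotation of GRCm38. From Psmb9 (34181987 to 34187764) through Tap1 (34187553 to 34197225) and Psmb8 (34197721 to 34201454) to Tap2 (34203527 to 34216321) they are neighbours. H2-K1 (33996017 to 34000347) and Tapbp (33915899 to 33929292) lie on one side of them and H2-D1 (35262730 to 35267499) on the other. B2m is on chromosome 2 (122147686 to 122153083), and Nlrc5 (94434356 to 94527272) and Psmb10 (105935735 to 105938444) are on chromosome 8. The library kit did not mark strand, so reads from shared exon bases cannot be assigned. The share of exon bases that another annotated gene also covers was 29.0% in Tapbp, 18.5% in Tap2, 14.7% in Psmb8, 5.8% in Psmb9, 3.9% in Tap1 and 0.9% in Nlrc5, and 0.0% in the other 4. H2-K1 and H2-D1 resemble each other and the other class I heavy chains, and the sources used here do not say how reads matching several of them were counted.

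Total counts per library lay between 33568526 and 42854511. The vehicle library differed from the treated ones with transcript length. At 2 h over vehicle, transcripts in the longest quintile (5141 bases or more) had a median log2 ratio 0.61 above that of the shortest quintile (at most 1779 bases), and at 24 h 0.78 above it. For 24 h over 2 h the difference was 0.15. Ratios of single genes at 24 h over vehicle, and the main ones at other times, are therefore also given after adjustment for length and GC content. Of 12 cDC1 and dendritic cell markers, 11 had a mean of at least 10 CPM, among them Irf8, Xcr1 and Clec9a, and only Itgae, with a mean of 2.11 CPM, did not. All 4 neutrophil markers and 4 of 5 T cell markers, among them Cd3e, were at 0 in every library. The 5 B cell markers summed to at most 0.495 CPM and the 5 fibroblast markers to at most 0.61 CPM. Of 6 macrophage markers Csf1r and C1qa had a mean of at least 10 CPM, and the list summed to 118 CPM in vehicle and 108 to 163 CPM over all 5 libraries.

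Levels per kilobase of transcript were highest for B2m, with a mean over the 5 libraries of 1216 CPM per kilobase. H2-D1 (497) and H2-K1 (481.5) followed and were not separated, since H2-D1 was the higher in vehicle (517 against 509.9) and the lower at 12 h (453 against 468). Then came Psmb8 at 332 and Psmb9 at 233 CPM per kilobase. Tapbp (148) and Psmb10 (146) changed places between vehicle and 2 h. Tap1 stood at 114, Tap2 at 90.6 and Nlrc5, the regulator, at 5.6 CPM per kilobase. The messages of the class I molecule thus headed the order in these cells and that of the transactivator closed it.

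**Figure D1:**
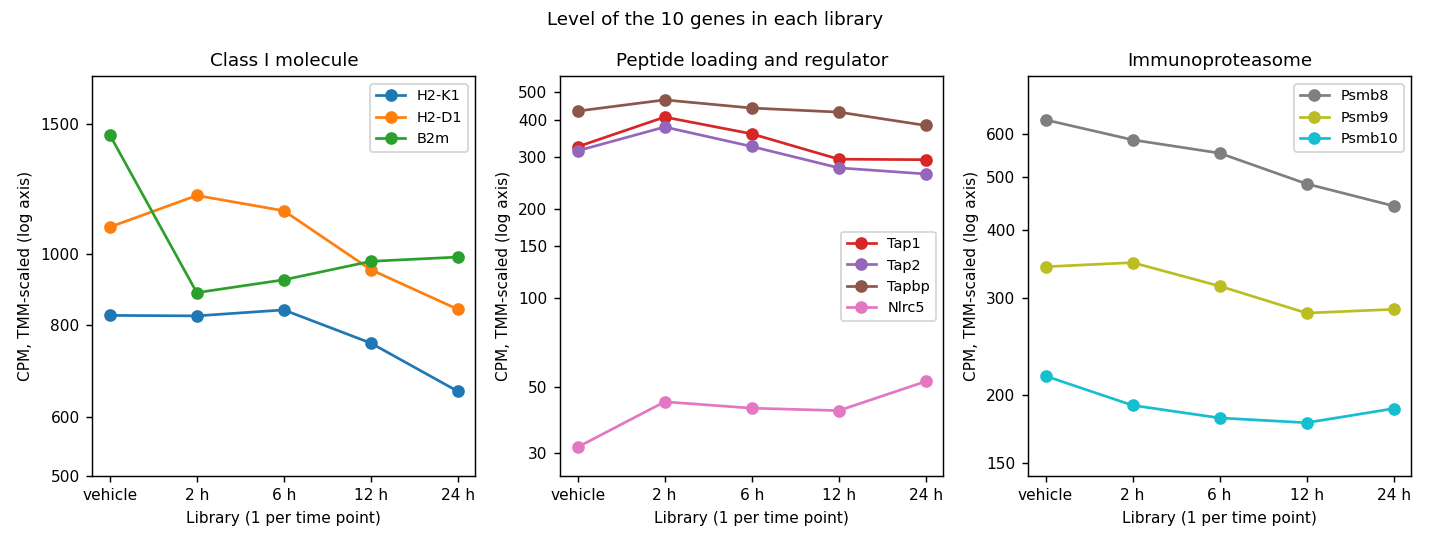
TMM-scaled CPM (log axis) of the 10 genes in each of the 5 libraries, with 1 point per library and no error bars because there is 1 library per time point. B2m is highest in vehicle, Nlrc5 is lowest there, and H2-D1, Tap1, Tap2 and Tapbp are highest at 2 h and lowest at 24 h.

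Against vehicle, none of the 10 genes reached a log2 ratio of 1 in either direction at any time point. This rule of size, which also asks that the 95% counting interval exclude a ratio of 1, took 1.33%, 1.94%, 3.07% and 4.09% of compared genes at 2, 6, 12 and 24 h. The median log2 ratio of the 10 genes at 2, 6, 12 and 24 h was 0.08, 0.03, -0.19 and -0.26, beside 0.03, 0.04, 0.02 and 0.00 over all compared genes. Adjusted for length and GC content the members' medians were 0.05, -0.05, -0.09 and -0.13. Intervals lay below a ratio of 1 for 3, 4, 8 and 9 members at the same times. The same was true of 35.6%, 34.6%, 37.3% and 41.0% of all compared genes, because at this depth small differences already exceed counting error. Intervals lay above 1 for 5, 6, 1 and 1 members, beside 41.3%, 43.7%, 42.2% and 41.6% of all compared genes.

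The heavy chain genes stood at or slightly above vehicle through 6 h and below it at 12 and 24 h, except that H2-K1 at 12 h was at -0.12 as computed and 0.06 adjusted. H2-K1, which encodes the H2-K heavy chain, was at 826 CPM in vehicle and 824, 839.8, 757 and 651 CPM after 2, 6, 12 and 24 h. The lowest library was thus the last, with a log2 ratio to vehicle of -0.34 (95% exact counting interval -0.37 to -0.32), or -0.12 adjusted for length and GC. H2-D1, the H2-D heavy chain, was at 1088 CPM in vehicle and 1201, 1145, 952 and 841 CPM after 2, 6, 12 and 24 h. It stood above vehicle at 2 h (0.14, 0.12 to 0.16; 0.17 adjusted) and below it at 24 h (-0.37, -0.39 to -0.35; -0.22 adjusted). The ratio of H2-D1 to H2-K1 counts within a library, which no scaling between libraries can move, went from 1.32 in vehicle to 1.46 at 2 h and 1.26 at 12 h. Length and GC content can still move it: its log2 change from vehicle was 0.15 at 2 h (0.07 adjusted) and -0.07 at 12 h (-0.14 adjusted).

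B2m, whose product pairs with every heavy chain, had its highest value in vehicle and its lowest at 2 h. It was at 1452 CPM in vehicle and 886, 923, 978 and 991 CPM after 2, 6, 12 and 24 h. All 4 treated libraries lay below vehicle, with log2 ratios of -0.71 (-0.73 to -0.69) at 2 h and -0.55 (-0.57 to -0.53) at 24 h. At 860 bases it has the shortest transcript of the 10 and, with 41.2% GC, the lowest GC content. The 187 other compared genes within 10% of its length had a median log2 ratio of -0.27 at 2 h and -0.42 at 24 h. Adjusted for length and GC content together, B2m was at -0.09 at 2 h and -0.14 at 24 h, so most of its distance from vehicle moved with these 2 properties.

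Because B2m and the heavy chains moved apart, their balance changed within each library. Summed H2-K1 and H2-D1 counts were 1.32 times the B2m counts in vehicle and 2.29, 2.15, 1.75 and 1.51 times after 2, 6, 12 and 24 h. Within the treated libraries the balance thus went back towards the vehicle value, by -0.60 on the log2 scale from 2 to 24 h (-0.63 to -0.58). The first step, from vehicle to 2 h, also holds the larger difference in transcript length between libraries. Adjusted for length and GC content, H2-K1, H2-D1 and B2m were at 0.10, 0.17 and -0.09 at 2 h over vehicle. For 24 h over 2 h they were at -0.22, -0.39 and -0.05 adjusted, beside -0.34, -0.51 and 0.16 as computed. Most of the first shift in the balance and a large part of the second thus moved with these properties.

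Tap1 and Tap2, whose products form the TAP peptide transporter, were highest at 2 h and then stepped down together. Tap1 was at 325 CPM in vehicle and 409.8, 359.6, 295 and 294 CPM after 2, 6, 12 and 24 h. Its log2 ratio to vehicle was 0.33 (0.30 to 0.37) at 2 h and -0.15 (-0.18 to -0.11) at 24 h, or 0.22 and -0.12 adjusted. Tap2 was at 315 CPM in vehicle and 379, 326, 276 and 263 CPM after 2, 6, 12 and 24 h. It lay 0.27 (0.23 to 0.30) above vehicle at 2 h and -0.26 (-0.30 to -0.22) from it at 24 h, with adjusted values of 0.08 and -0.32. Among all pairs of the 10 genes their profiles were the closest, with a root mean square distance of 0.04 on the log2 scale over the 5 libraries, and their count ratio stayed between 1.03 and 1.12.

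Tapbp, the tapasin gene, was likewise highest at 2 h and lowest at 24 h. It was at 429 CPM in vehicle and 468, 439.6, 426 and 384 CPM after 2, 6, 12 and 24 h. Its log2 ratio to vehicle was 0.13 (0.09 to 0.16) at 2 h and -0.16 (-0.19 to -0.13) at 24 h, or 0.022 and -0.13 adjusted, so that little of the difference at 2 h was left.

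Nlrc5, the class I transactivator, was the only one of the 10 above vehicle in all 4 treated libraries with its interval excluding a ratio of 1. Its levels were 31.4 CPM in vehicle and 44.6, 42.5, 41.7 and 52.3 CPM after 2, 6, 12 and 24 h, on 1028 to 2232 counts. The log2 ratio was 0.51 (0.40 to 0.62) after 2 h, 0.44 (0.33 to 0.55) after 6 h, 0.41 (0.30 to 0.53) after 12 h and 0.74 (0.63 to 0.85) after 24 h. At 7578 bases its transcript is the longest of the 10, and the 404 other compared genes within 10% of that length had medians of 0.45 at 2 h and 0.52 at 24 h. Adjusted for length and GC content it stood at -0.03, -0.12, -0.14 and 0.19, which puts it above vehicle at 24 h only. The step from 12 to 24 h was the same either way, at 0.33 (0.23 to 0.42) and 0.33 adjusted.

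As computed, the immunoproteasome subunits stood below vehicle at 12 and 24 h. Adjusted for length and GC content, Psmb9 and Psmb10 came near to vehicle and Psmb8 stayed below it. Psmb8, which encodes the inducible chymotrypsin-like subunit LMP7, was at 636 CPM in vehicle and 584, 553, 486 and 442.5 CPM after 2, 6, 12 and 24 h. Every library was lower than the one before it, and at 24 h the log2 ratio was -0.52 (-0.55 to -0.49), or -0.30 adjusted. Psmb9, the LMP2 subunit, was at 343 CPM in vehicle and 349, 316, 282 and 286.5 CPM after 2, 6, 12 and 24 h, with a ratio to vehicle of -0.26 (-0.30 to -0.22) at 24 h and -0.0045 adjusted. Psmb10, the MECL-1 subunit, was at 216 CPM in vehicle and 191, 181, 178 and 189 CPM after 2, 6, 12 and 24 h. At 24 h its log2 ratio was -0.20 (-0.24 to -0.15), or 0.07 adjusted. Adjusted values at 12 h were -0.20 for Psmb8, -0.06 for Psmb9 and -0.05 for Psmb10.

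Each inducible subunit replaces a constitutive one in the core particle: Psmb8 replaces Psmb5, Psmb9 replaces Psmb6 and Psmb10 replaces Psmb7. Within a library the Psmb8 counts were 3.43 times those of Psmb5 in vehicle and 2.87, 2.78, 2.4 and 2.33 times after 2, 6, 12 and 24 h. The change from vehicle was -0.26 (-0.31 to -0.20) at 2 h and -0.56 (-0.61 to -0.50) at 24 h on the log2 scale, with a 95% interval from the 4 counts by the delta method. Psmb9 over Psmb6 was 1.47 in vehicle and 1.56, 1.46, 1.29 and 1.49 in the treated libraries in order of time, and its change at 24 h was 0.02 (-0.04 to 0.08; -0.06 adjusted). Psmb10 over Psmb7 was 0.786 in vehicle and 0.76, 0.744, 0.724 and 0.826 after 2, 6, 12 and 24 h, a change of 0.07 (0.01 to 0.13) at 24 h. At 24 h the Psmb8 pair lay farthest from vehicle of the 3. At 12 h Psmb9/Psmb6 and Psmb10/Psmb7 had changed by -0.18 and -0.12, and Psmb8/Psmb5 by -0.52. Psmb5 itself was at 185 CPM in vehicle and 189.7 at 24 h, a log2 ratio of 0.03 (0.37 adjusted). Psmb8 at 24 h (-0.52; -0.30 adjusted) was near the median of the 16 other core and assembly genes, which was -0.50 (-0.21 adjusted).

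**Figure D2:**
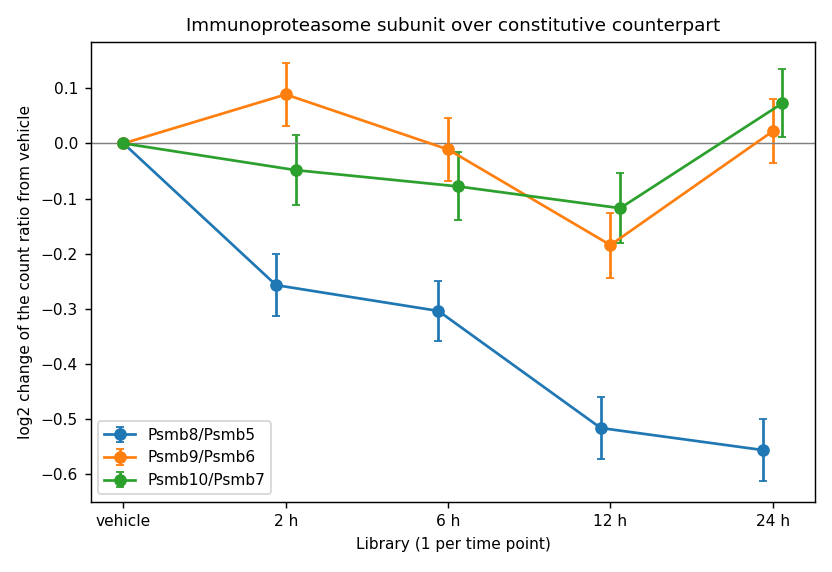
Log2 change from vehicle of the count ratio of each immunoproteasome subunit to its constitutive counterpart, by library, with 95% intervals that cover counting error only. Psmb8/Psmb5 lies at -0.56 at 24 h, while Psmb9/Psmb6 and Psmb10/Psmb7 are at 0.02 and 0.07.

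Across the 10 genes the ratio to vehicle went with transcript length, as it did over all compared genes. Pearson's r between log2 length and log2 ratio was 0.893 at 2 h and 0.828 at 24 h (Spearman's rho 0.927 and 0.576; 10 genes that share their libraries). For 24 h over 2 h, where the vehicle library is not used, r was -0.0075 and rho -0.358.

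**Figure D3:**
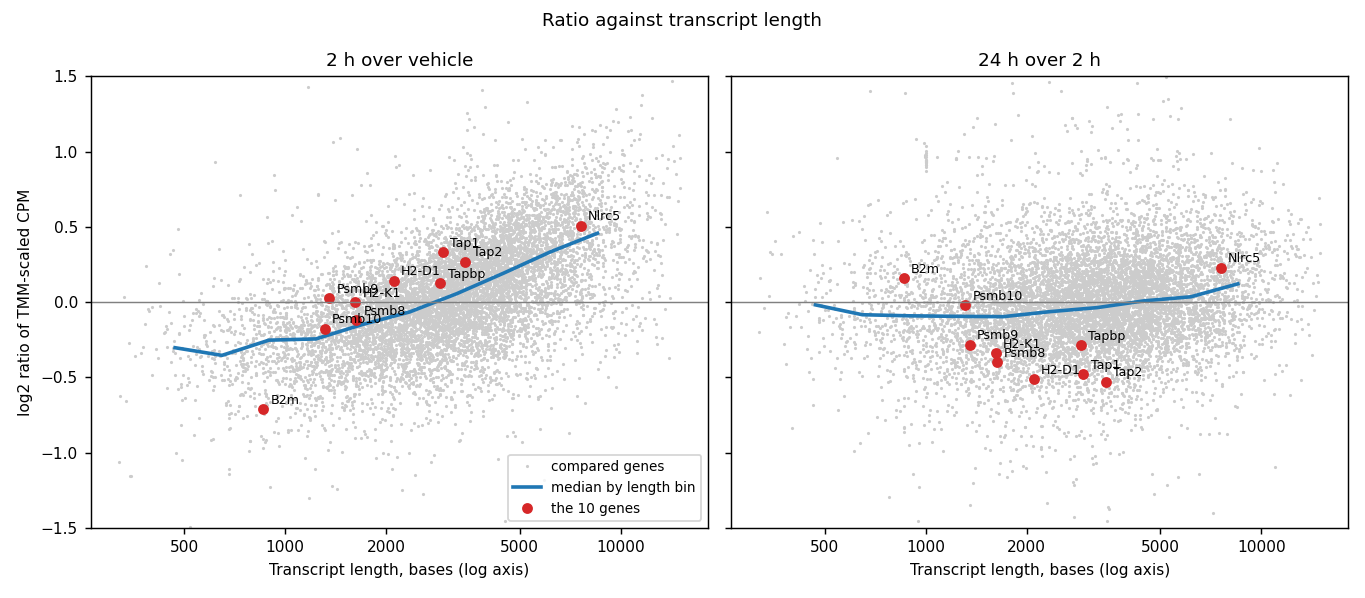
Log2 ratio of TMM-scaled CPM against transcript length (log axis) for 2 h over vehicle (left) and 24 h over 2 h (right). Grey points are compared genes (72 and 91 lie outside the axes), the line is their median by length bin and red points are the 10 genes. B2m and Nlrc5 lie at the short and the long end on the left, and the members do not follow length on the right.

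Among the treated libraries alone, the peptide transporter, the heavy chains, tapasin, Psmb8 and Psmb9 stood lower at 24 h than at 2 h, and Nlrc5 and B2m stood higher. No member reached a log2 ratio of 1 for 24 h over 2 h, where 1.55% of compared genes did. Log2 ratios were -0.53 for Tap2 (-0.56 to -0.49), -0.51 for H2-D1 (-0.53 to -0.49), -0.48 for Tap1 (-0.51 to -0.44), -0.40 for Psmb8, -0.34 for H2-K1, -0.29 for Tapbp and -0.28 for Psmb9. These 7 had intervals below a ratio of 1, which 40.5% of compared genes also had, and 2 had intervals above it, as did 33.7%. Their adjusted values ran from -0.40 for Tap2 to -0.15 for Tapbp. Nlrc5 was at 0.23 (0.14 to 0.32; 0.24 adjusted), B2m at 0.16 (0.14 to 0.18; -0.05 adjusted) and Psmb10 at -0.02 (-0.07 to 0.03).

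The steps fell at different times. From 2 to 6 h Tap2 (-0.22) and Tap1 (-0.19) had the lowest ratios of the 10, and H2-K1 (0.03) and B2m (0.06) lay just above 0. From 6 to 12 h Tap1 (-0.28), H2-D1 (-0.27) and Tap2 (-0.24) were lowest. From 12 to 24 h H2-K1 (-0.22) and H2-D1 (-0.18) were lowest, Tap1 stood at -0.01 and Nlrc5 at 0.33. None of the 10 reached a log2 ratio of 1 in these steps, beside 0.328%, 0.305% and 0.147% of compared genes.

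**Figure D4:**
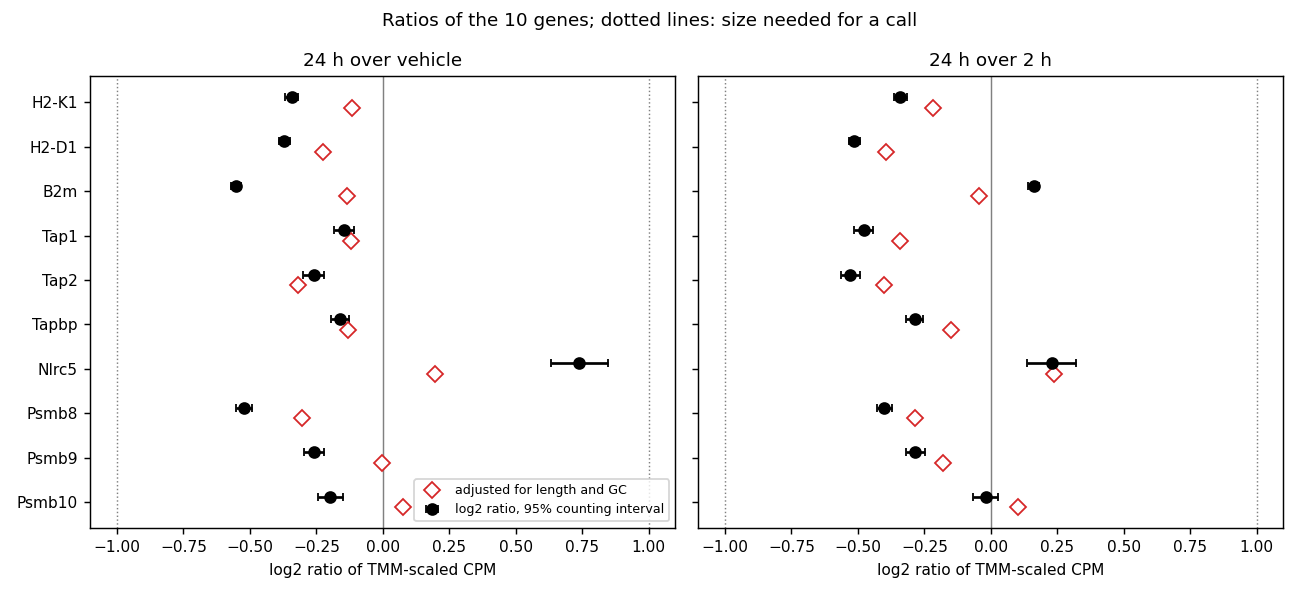
Log2 ratios of the 10 genes for 24 h over vehicle (left) and 24 h over 2 h (right), as computed (black, with 95% intervals that cover counting error only) and adjusted for length and GC content (open red diamonds). Dotted lines at -1 and 1 mark the size needed for a call, and no gene reaches them.

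A trend over the 5 libraries was fitted as a slope on log2(hours + 1) with edgeR's quasi-likelihood test, whose spread comes from departures from that line. Psmb8 fell, with a slope of -0.11 log2 per unit and an adjusted p of 0.0453 (Benjamini-Hochberg over 13915 genes). It was the 1 member of 10 past the threshold of 0.05, beside 3.86% of all genes tested that passed falling and 5.15% that passed rising. Nlrc5 had a slope of 0.12 and an adjusted p of 0.0856, and H2-D1 and B2m one of 0.201 each. The call of Psmb8 was not kept with the 6, 12 or 24 h library left out. Then 0 members passed, at an adjusted p threshold of 0.05 that 359, 0 and 41 of all genes met. The slope of Psmb8 was -0.11, -0.11 and -0.098 in these fits, which have fewer residual degrees of freedom. Without the 2 h library Psmb8 and Nlrc5 passed.

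Fitted on the 4 treated libraries without vehicle, with 2 residual degrees of freedom, 4 members fell: Tap2 (slope -0.18, adjusted p = 0.00762), Tap1 (-0.17, 0.0118), H2-D1 (-0.18, 0.0132) and Psmb8 (-0.14, 0.0212), by edgeR's quasi-likelihood test. Of all 13764 genes tested in that fit 15.2% passed (7.96% falling and 7.29% rising). Psmb9 (adjusted p = 0.0562), H2-K1 (0.0748) and Tapbp (0.078) did not pass, nor did B2m (0.26), Nlrc5 (0.353) and Psmb10 (0.85). Leaving out the vehicle library thus took the count of members from 1 to 4, and that of all genes from 1253 of 13915 to 2099 of 13764. Neither of these trend fits was adjusted for length and GC content.

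Other genes of class I presentation were read from 8 lists of 88 genes. In class I loading and trimming, 0 of 11 compared genes were called at any time point against vehicle, with a median of 0.05 at 24 h (-0.23 adjusted). Lowest at 24 h was Pdia3, whose product ERp57 is part of the loading complex, at -0.63 (1021 against 1582 CPM; -0.57 adjusted), and the chaperones calreticulin (Calr, -0.48; -0.33 adjusted) and BiP (Hspa5, -0.45; -0.52 adjusted) were also below vehicle. Sec61b, of the translocon channel, was at -0.61 (-0.23 adjusted). Of the other heavy chain genes 9 of 15 were compared and 0 called, with a median of -0.09 at 24 h that turned to 0.07 when adjusted. H2-T10 (-0.34), H2-Q7 (-0.32) and H2-T22 (-0.27) stood below vehicle, with adjusted values of -0.11, -0.07 and -0.07. H2-M3, which presents formylated peptides, stood above it (0.25; 0.51 adjusted).

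Most of the proteasome genes outside the immunoproteasome also lay below vehicle at 24 h. The 16 other core and assembly genes had a median of -0.50 (-0.21 adjusted) with 0 called. All of them but Psmg3 (0.08; 0.42 adjusted) were below vehicle, and after adjustment all but Psmg3 and Psmb4 (-0.13; 0.15 adjusted). The assembly chaperone Psmg2 was lowest (-0.77; -0.47 adjusted). Psmb2 (-0.67; -0.33 adjusted) and Psma4 (-0.61; -0.27 adjusted), both of the core particle, and Psmg4, another assembly chaperone (-0.60; -0.23 adjusted), followed. The constitutive catalytic subunits were at 0.03 (Psmb5), -0.28 (Psmb6) and -0.27 (Psmb7), and adjusted at 0.37, 0.06 and 0.03, so that Psmb6 and Psmb7 changed sign. For the activator caps, which open the core particle, Psme1 was at -0.62 (347 against 533 CPM, -0.33 adjusted) and Psme2 at -0.30 (0.01 adjusted). Psme3, of a nuclear cap, was at -0.38 (-0.32 adjusted), and Psme4, of a separate activator, at 0.49 (0.09 adjusted). Thus Psme1, like Psmb8, kept a lower value after adjustment, and Psme2, like Psmb9, came close to 0.

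Upstream of the class I promoters, 0 of 9 partners and relatives of NLRC5 and 0 of 13 compared interferon signalling genes were called against vehicle at any time point. At 24 h the 9 partners and relatives had a median of -0.02 (-0.07 adjusted). Those not named here lay between -0.05 and 0.17 (-0.47 to 0.14 adjusted). Nfyc, a subunit of the factor that binds the Y box, was at -0.39 (-0.22 adjusted). Rfxap, of the factor that binds the X box, was at -0.21 and Atf1 at -0.19, and both were nearer to 0 when adjusted (-0.07 and -0.04). Ciita, the class II transactivator related to NLRC5, was at 191 against 129.9 CPM at 24 h (0.56; 0.14 adjusted). Irf1, an interferon-induced activator of class I and immunoproteasome genes, was at 136 CPM in vehicle and 166, 166, 199.8 and 191 CPM after 2, 6, 12 and 24 h. It stood 0.49 above vehicle at 24 h (0.44 to 0.54) and 0.63 above it adjusted. Stat2 was at 0.56 (0.34 adjusted), and the receptor chains Ifngr2 (-0.72, -0.82 adjusted) and Ifnar2 (-0.63, -0.64 adjusted) lay below vehicle. Irf1 and Nlrc5, both activators of class I genes, thus stood above vehicle at 24 h, and the heavy chain and transporter genes below it.

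Of 15 listed interferon-induced genes 8 were compared. Of these, 1 was called higher and 0 lower at 24 h over vehicle, beside 2.86% of all compared genes called higher. This was Ifit2, an inhibitor of translation, at 6.28 CPM in vehicle and 7.39, 8.1, 10.1 and 17.6 CPM after 2, 6, 12 and 24 h (log2 ratio 1.48, 1.26 to 1.72; 1.43 adjusted). Oas1a, an RNA sensor enzyme, was at 5.43 CPM in vehicle, 4.74 at 12 h and 10.6 at 24 h, and was called for 24 h over 12 h (1.15). It met the filter of 10 CPM only through the 24 h library, and Ifit2 only through those of 12 and 24 h. Each was thus compared only because of libraries in which it was high, so these calls partly follow from the filter. The list's median at 24 h was 0.03, or 0.32 adjusted, with Oasl1 at -0.32 (-0.19 adjusted) and Mx1 at -0.12 (-0.16 adjusted).

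Genes with the most similar profile were sought among 4156 others with a mean of at least 50 CPM, by root mean square distance of centred log2 CPM over the 5 libraries. The mean of the 10 members joins unlike profiles, since B2m and Nlrc5 lay 0.47 apart by this distance (Pearson's r -0.809 over 5 libraries). Nearest to that mean were Cdkn2aipnl (0.011), Mfsd10 (0.0194), Gnb2 (0.022), Thoc5 (0.023) and Rcbtb2 (0.0237). For Nlrc5, the member with the widest range, they were Pdxk (0.026), Snx8 (0.0354), Mroh1 (0.052), Klf3 (0.055) and Pik3r1 (0.0575). Their transcripts have 5124, 2627, 5268, 5221 and 7113 bases, in that order, so that all but Snx8 are long, as Nlrc5 is.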

How the data were processed

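The authors deposited raw counts per gene, 1 column per time point, from poly-A libraries. Per the submitters' processing notes, Trim Galore, HISAT2 and the build GRCm38 were used; the sources used here do not name the counting program, its annotation or its strand setting. From the counts, log2 CPM were computed with edgeR 4.0.16 (R 4.3.3), using TMM scaling (factors of 0.977 to 1.05) and 2 as the prior count. Ratios carry 95% exact (Clopper-Pearson) intervals, which cover counting error only and take 1 count as 1 read. A call needs a log2 ratio of at least 1 and an interval that excludes a ratio of 1; it compares libraries, not conditions. The trend test used filterByExpr and 3 residual degrees of freedom. Both it and the rule of size were run on simulated data. The trend simulation had straight slopes, a common dispersion and no length difference between libraries, so it does not vouch for the calls made here.

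Length and GC content came from GENCODE M21, for 99.88% of compared genes, by the longest basic coding transcript; ratios were adjusted with a smooth fit (mgcv 1.9.3). DESeq2 1.42.0 served as an alternative. Named genes were all 10 members, up to 4 per list with the largest ratio at 24 h, called list members, 7 genes fixed by name, of which 1 is not reported here, and the 5 nearest profiles. The members and lists were chosen with earlier results of these data known, and the comparison with genes within 10% of a member's length and the motifs were added after the values were seen.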

Additional observations from a re-analysis of the deposited data

How the results depend on the processing

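No member was called at a log2 ratio of 1 under DESeq2 size factors, total counts alone, a prior count of 0.5, length and GC adjustment or the 2 h library as reference. At a ratio of 1.5, 1 member was called at 2 h and 1 at 6 h over vehicle (B2m), and 1 at 24 h (Nlrc5). Of all 8846 compared genes, 957, 1200 and 1864 were called at that ratio at 2, 6 and 24 h. Adjusted for length and GC content, B2m was at -0.09 and -0.06 at 2 and 6 h and Nlrc5 at 0.19 at 24 h. Each member has 1 row, so summing rows was not run. No paired analysis was possible because each group has 1 library. DESeq2 size factors moved the members' log2 ratios by at most 0.0207, and total counts alone by at most 0.102. Length and GC adjustment changed the sign of 16 of 80 member ratios.

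Called genes at 2, 6, 12 and 24 h over vehicle numbered 118, 172, 272 and 362. They numbered 1101, 1195, 1379 and 1635 with no filter beyond 10 counts in total, 957, 1200, 1429 and 1864 at a ratio of 1.5, and 61, 87, 163 and 225 with length and GC adjustment. With the 2 h library as reference 29, 82 and 137 were called at 6, 12 and 24 h. For 6 over 2 h, 12 over 6 h, 24 over 12 h and 24 over 2 h the counts were 609, 607, 628 and 1078 without the filter and 105, 114, 72 and 688 at a ratio of 1.5. Adjusted for length and GC, Psmb8/Psmb5 changed by -0.37, -0.42, -0.62 and -0.67 at 2, 6, 12 and 24 h, Psmb9/Psmb6 by 0.015, -0.10, -0.26 and -0.064, and Psmb10/Psmb7 by -0.22 at both 2 and 6 h.

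In the trend test 1253 of 13915 genes and 1 member (Psmb8) passed. With hours as the time scale 0 genes and 0 members passed (2728 genes and 5 members at an unadjusted p under 0.05 by edgeR), and with ranks 764 and 1. On the 4 treated libraries 2099 genes and 4 members passed, and by DESeq2's Wald test 2449 and 2 (Nlrc5, Psmb8). With no filter beyond 10 counts in total 965 genes and 0 members passed. As alternatives chosen after seeing the data, single libraries were left out: 1990 genes and 2 members passed without 2 h, 359 and 0 without 6 h, 0 and 0 without 12 h (2841 genes and 2 members at an unadjusted p under 0.05), and 41 and 0 without 24 h. The cause was not tested.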
